A study of Mus musculus with 16 samples.

Results

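The 41 genes described here drive or restrain the cell cycle, and they were read from the 23337 genes of the count table by symbol alone. They comprise 10 regulators of the G1 phase, 10 genes of DNA replication, 15 genes of mitosis and 6 genes grouped as Cdk inhibitors and p53. RNA was measured by RNA-sequencing in the optic nerve head of wild-type C57BL/6 mice, the unmyelinated segment in which astrocytes surround the axons of retinal ganglion cells. There were 4 groups of 4 libraries. Young naïve mice were 13 weeks and aged naïve mice 40 weeks old, and neither was injected. The other groups were 13 weeks old and had received saline or microbeads in the anterior eye chamber 4 weeks earlier. Microbeads block the drainage of the eye and raise its pressure. Each library pooled 4 nerve heads from as many mice, 2 male and 2 female, and whole tissue was used without purification of astrocytes. In such tissue, fewer cells of a type and less RNA per cell cannot be told apart.

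The cell cycle is driven by cyclin-dependent kinases (Cdks), each switched on by a cyclin partner. In G1, D-type cyclins with Cdk4 or Cdk6 phosphorylate the retinoblastoma protein and so release E2F factors, which turn on the genes of DNA replication. Later, genes of mitosis are transcribed under the DREAM and MuvB complexes, and Cdk inhibitors and p53 hold the cycle back. In the adult nerve most astrocytes and oligodendrocytes are quiescent, while oligodendrocyte precursors, microglia and endothelial cells can divide. Several G1 regulators have uses outside division, so their RNA alone does not mark a dividing cell.

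Expression is given in CPM, in which each count is divided by the total of its library after TMM scaling, and library totals lay between 6213789 and 10726122 counts. The authors left out 1 aged and 1 saline library as outliers of a principal component analysis. The methods do not name them, and they were taken to be aged replicate 2 and saline replicate 4, the libraries that have no column in the authors' comparison tables. The tests therefore rest on 14 libraries, and many but not all results are followed over all 16. Both libraries stood apart from their group in Lars2, a mitochondrial leucyl-tRNA synthetase. Lars2 lay at 130.2 to 212 CPM in the young, 8549 to 9296 CPM in the other 3 aged, 90.3 to 131 CPM in the other 3 saline and 4192 to 6010 CPM in the microbead libraries. Aged replicate 2 held 677 CPM of it, and saline replicate 4 held 5551 CPM. Over the 14 libraries Lars2 thus separated the groups of both main comparisons, and its part in the results below was not tested. The RNA concentrations that the authors list were higher in every aged than in every young pool. They were lower in the other 3 saline pools than in every microbead pool, and saline replicate 4 lay within the microbead range. The part of RNA concentration was not tested either. The 11 astrocyte markers summed to at least 10105 CPM in every library, so astrocyte RNA was present throughout.

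A gene was called when edgeR's quasi-likelihood test gave a change of at least 1.5-fold, p under 0.01 and a Benjamini-Hochberg adjusted p under 0.05. Of the 41 members, 37 had enough counts for the test, among 14541 genes tested in all. The 4 that did not are Ccnb1, Bub1, Plk1 and Cdkn2a. The table was counted from libraries that do not keep the strand, so reads of genes with overlapping exons cannot be told apart. Exons overlapped another gene of the table for Ccnd1 (Mir3962), Ccnd3 (Bysl), Ccne2 (Ints8), Ccna2 (Exosc9) and Foxm1 (4933413G19Rik). The annotation also lists pseudogenes named after Ccnd3, Pcna, Tyms, Ccnb1, Ccnb2 and Trp53, with which reads could be shared.

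Promoter sequences are shown for the 3 mitosis genes that were lower in aged nerve heads, Mki67, Cenpf and Ube2c, and for Cdk6, the member that was higher. Each is the 250 bases before the transcription start in RefSeq annotation of GRCm38.p6, written 5′ to 3′ on the strand of the gene. Capitals mark the CHR element TTTGAA, through which the MuvB complexes act on late cell cycle genes, and the CCAAT box, the site of the NF-Y factor, on either strand. The windows lie at chr7:135716380-135716629 (minus strand) for Mki67, chr1:189688087-189688336 (minus) for Cenpf, chr2:164769679-164769928 (plus) for Ube2c and chr5:3343643-3343892 (plus) for Cdk6.
Mki67: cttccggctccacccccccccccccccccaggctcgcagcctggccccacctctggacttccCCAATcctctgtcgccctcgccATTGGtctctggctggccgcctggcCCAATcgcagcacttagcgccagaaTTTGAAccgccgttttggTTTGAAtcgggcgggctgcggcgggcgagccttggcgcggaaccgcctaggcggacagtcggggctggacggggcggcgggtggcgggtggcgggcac
Cenpf: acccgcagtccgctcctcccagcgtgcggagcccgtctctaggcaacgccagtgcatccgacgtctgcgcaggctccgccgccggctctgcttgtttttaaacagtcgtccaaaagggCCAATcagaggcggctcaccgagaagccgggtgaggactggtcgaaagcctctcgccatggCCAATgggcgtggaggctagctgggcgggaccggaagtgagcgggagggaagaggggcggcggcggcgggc
Ube2c: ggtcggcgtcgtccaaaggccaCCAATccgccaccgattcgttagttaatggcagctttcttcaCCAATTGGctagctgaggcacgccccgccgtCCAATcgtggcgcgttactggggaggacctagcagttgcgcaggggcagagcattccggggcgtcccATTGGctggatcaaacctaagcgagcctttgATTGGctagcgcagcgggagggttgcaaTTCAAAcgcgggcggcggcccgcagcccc
Cdk6: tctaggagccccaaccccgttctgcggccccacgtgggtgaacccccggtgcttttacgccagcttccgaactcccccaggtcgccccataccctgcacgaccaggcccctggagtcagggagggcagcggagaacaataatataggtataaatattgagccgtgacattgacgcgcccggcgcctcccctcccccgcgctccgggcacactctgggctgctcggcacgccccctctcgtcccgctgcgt

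The Mki67 window held TTTGAA 116 and 98 bases before the start and a CCAAT box at 188, 166 and 141 bases. Ube2c held TTTGAA at 29 bases and 6 CCAAT boxes, of which those at 186 and 183 bases overlap on opposite strands. Cenpf held CCAAT boxes at 132 and 71 bases and no TTTGAA, and the Cdk6 window, whose RefSeq start lies 419 bases before the gene start of the count table, held neither. A promoter was found for 32 of the 41 members, giving 37 windows. TTTGAA stood in 5 of the 12 windows of mitosis genes (41.7%), 1 of the 10 of replication genes and none of the 7 of G1 regulators or the 8 of inhibitors and p53, against 16% of all 32851 windows of the same length. The CCAAT box stood in 91.7% of the mitosis and 90% of the replication windows, 28.6% of the G1 and 25% of the inhibitor windows, and 33.8% of all windows. Of the E2F sites searched on both strands, TTTCCCGC stood in 3 windows of members (upstream of Cdk2, Mcm7 and Cdkn2a) and in 0.895% of all windows, and TTTGGCGC in 2 (Mcm5 and Mcm6) and in 0.417%. These are matches of letters and not measured binding sites.

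The members covered a wide range of levels, which can be compared between genes as CPM per kilobase of exon. In young naïve nerve heads the D-type cyclins led, with medians of 185 CPM per kb for Ccnd2, 125 for Ccnd1 and 121 for Ccnd3, and their partner kinase Cdk4 stood at 91.8. Cdk6, the other partner, stood at 2.16 CPM per kb. Next came the Cdk inhibitors Cdkn1c (p57) at 47.4 and Cdkn1a (p21) at 39.6 CPM per kb, and Trp53, the gene of p53, at 27.0. Replication genes lay between 1.31 (Tyms, thymidylate synthase) and 16.1 CPM per kb (Pcna, the sliding clamp of DNA polymerase). All 15 mitosis genes lay at or under 3.47 CPM per kb (Ccna2, cyclin A2), a range they shared with Cdk6, Ccne1 and several replication genes.

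Mki67, the gene of the proliferation marker Ki-67, had 124 counts over all 16 libraries together, and Top2a, the topoisomerase that untangles sister chromatids, had 319. Cdkn2a, the gene of the senescence inhibitors p16 and p19Arf, was the lowest member, with 23 counts over 16 libraries and at most 5 in a library. A count of 0 in a library allows up to 3 counts, which is 0.284 to 0.433 CPM here, so values of this size were not resolved. Counting error alone contributes a coefficient of variation of 1.04% for Ccnd2 and 29.2% for Mki67 in the young libraries, where the observed values were 4.05% and 56.6%. Ccnd1 varied by 23.2% among the young libraries against a counting error of 1.59%, so counting error was a small part of its spread.

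**Figure D1:**
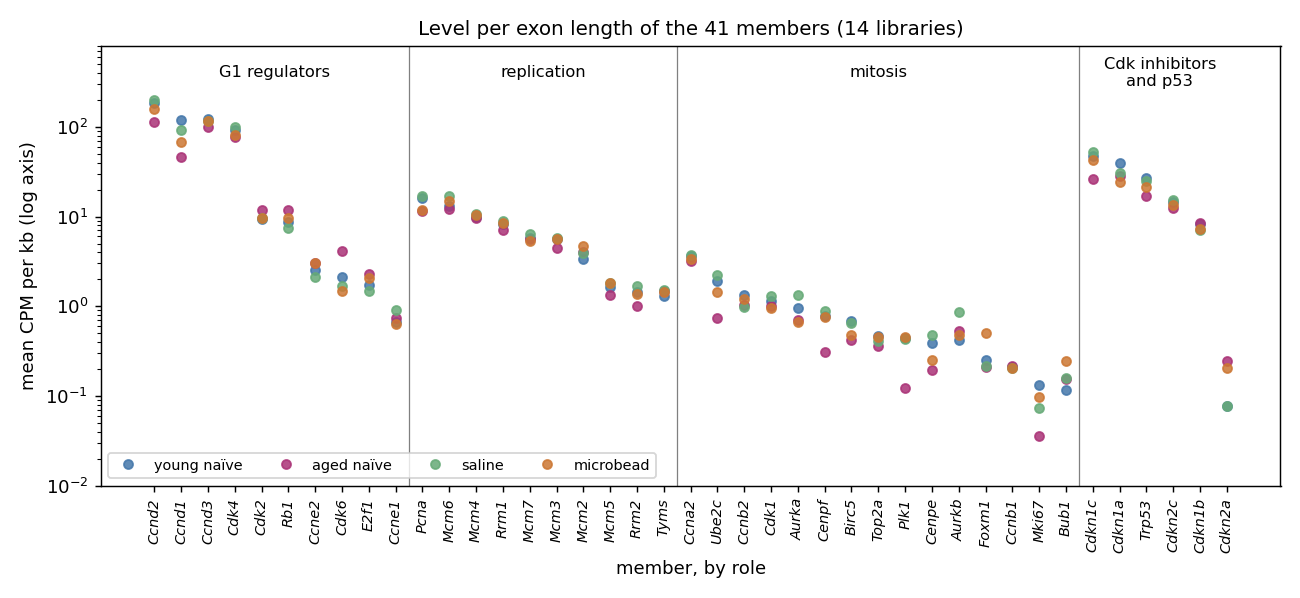
Mean level of each of the 41 members in CPM per kilobase of exon (log axis) in the 4 groups, over the 14 libraries, ordered by role and by level in young naïve nerve heads. The D-type cyclins and Cdk4 lie highest, and most mitosis genes and Cdkn2a lie lowest. In Cdk6 the aged mean lies above those of the other 3 groups and in Cenpf below them.

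Aged naïve nerve heads were compared with young naïve ones to show how expression differs between 40 and 13 weeks. Of the 37 members tested, 1 was called higher, Cdk6, where 15.1% of all genes tested were called higher. In the other direction 7 were called lower, Ccnd1, Ccnd2, Mki67, Cenpf, Ube2c, Cdkn1c and Trp53, where 11.4% of all genes were called lower. The median log2 fold change was -0.27 over the 37 members and 0.02 over all genes tested. The groups did not overlap for 3 members higher and 12 lower, where 27.2% and 25.4% of all genes did so. With all 16 libraries 5 members were called, Cdk6 higher and Ccnd1, Cenpf, Ube2c and Cdkn1c lower, where 19.7% of all genes were called in either direction.

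Among the G1 regulators, Cdk6 (chromosome 5 of mm10, 3344312 to 3522225) was 5.15, 5.53, 5.67 and 4.59 CPM in young naïve replicates 1 to 4. In aged replicates 1, 3 and 4 it was 9.03, 10.2 and 11.4 CPM, and 10.5 CPM in aged replicate 2. Every aged library, the one left out included, was above every young library. The mean rose from 5.23 ± 0.48 (SD, n = 4) to 10.2 ± 1.19 CPM (n = 3), a log2 fold change of 0.96 with a standard error of 0.21 and an adjusted p of 0.0010 by edgeR. The log2 fold change over all 16 libraries was 0.97.

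Ccnd1, the cyclin D1 gene (chromosome 7, 144929931 to 144939925), was 527, 422, 317 and 542 CPM in young replicates 1 to 4. It was 185, 225 and 118 CPM in aged replicates 1, 3 and 4, and 239.7 CPM in aged replicate 2. All aged libraries lay under all young ones. With age it fell by 1.36 on the log2 scale (SE 0.23, adjusted p 0.00042), and by 1.24 over 16 libraries.

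Ccnd2, the cyclin D2 gene (chromosome 6, 127125709 to 127151048), was 1095, 1061, 1072 and 995 CPM in young libraries and 627, 699.5 and 632 CPM in aged replicates 1, 3 and 4. Aged replicate 2 lay between the groups at 867 CPM. The log2 fold change of -0.69 (SE 0.08, adjusted p 2.37e-06) became -0.58 over 16 libraries, under the minimum of 1.5-fold, with an adjusted p of 0.0027. Ccnd3, the third of these cyclins, had a log2 fold change of -0.30 (adjusted p 0.023), which is under the minimum fold. Over 16 libraries its adjusted p was 0.14. Within a library, Ccnd1 made up 21.3% to 32.1% of the D-type cyclin level per kilobase in young libraries and 12.7% to 20.9% in aged ones, replicate 2 (19.0%) included, while Ccnd3 made up 26.4% to 31.2% and 35.8% to 42.2%. These shares do not depend on the scaling between libraries, and the 2 age groups did not overlap in either.

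Cdk4 had a log2 fold change of -0.29 (adjusted p 0.0035), under the minimum fold, with 103.9, 103.0 and 102 CPM in aged replicates 1, 3 and 4 and 119 to 136 CPM in young libraries. Aged replicate 2 was 148 CPM, above every young library, and over 16 libraries the log2 fold change was -0.14 (adjusted p 0.42). Cdk6 made up 1.93% to 2.47% of the summed Cdk4 and Cdk6 level per kilobase in young libraries and 3.72% to 5.77% in the 4 aged ones. Rb1, the retinoblastoma gene, had a log2 fold change of 0.45 (adjusted p 0.0011), also under the minimum fold. It was 37.9 to 42.3 CPM in young libraries and 56.2, 48.3 and 60.0 CPM in aged replicates 1, 3 and 4, but 39.8 CPM in aged replicate 2, within the young range. Over 16 libraries the adjusted p of Rb1 was 0.068. Cyclin E genes, Cdk2 and E2f1 did not pass the test, with log2 fold changes from 0.14 (Ccne1) to 0.39 (E2f1) and adjusted p from 0.12 to 0.82.

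**Figure D2:**
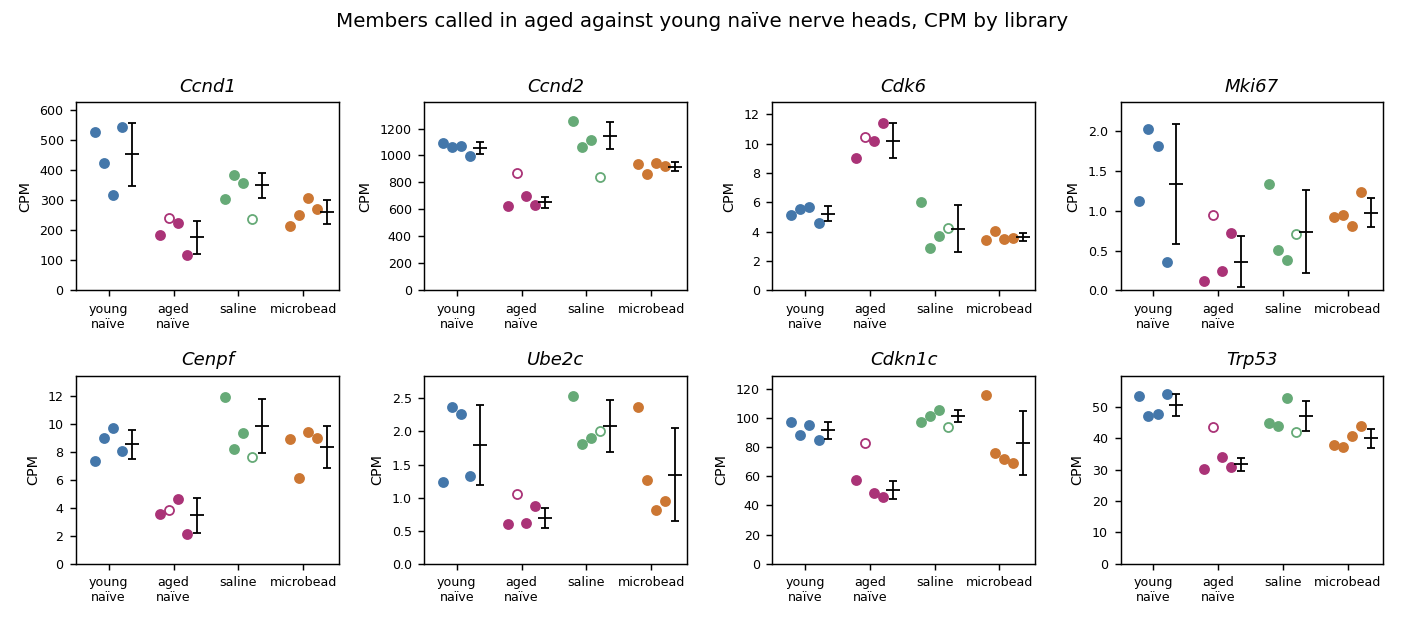
CPM of the 8 members called in the aged against young comparison, 1 point per library and a separate linear axis from 0 in each panel. Open points are the libraries left out of the tests (aged replicate 2 and saline replicate 4), and bars give the mean ± SD of the others. The aged Cdk6 points lie at 9.03 to 11.4 CPM, above those of all other groups, and the aged Cenpf points at 2.17 to 4.66 CPM, below them.

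None of the 10 replication genes was called in this comparison, where 15.1% of all genes tested were called higher and 11.4% lower. Their median log2 fold change was -0.15. The 6 Mcm genes, which encode the replicative helicase, had log2 fold changes between -0.33 (Mcm3) and 0.26 (Mcm2), with adjusted p of at least 0.11. Pcna was the member of this group with the smallest p. It was 20.4, 18.8, 21.2 and 20.3 CPM in young replicates 1 to 4 and 15.4, 15.3 and 13.0 CPM in aged replicates 1, 3 and 4. These groups did not overlap, and the log2 fold change was -0.46 (SE 0.11, adjusted p 0.0025), under the minimum fold. Aged replicate 2, at 22.7 CPM, was above every young library, and over 16 libraries the adjusted p was 0.26. Rrm1 and Rrm2, the subunits of ribonucleotide reductase, and Tyms had log2 fold changes of -0.20, -0.52 and 0.19 with adjusted p between 0.18 and 0.56.

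Of the 12 mitosis genes tested, 3 were called, all of them lower with age, where 11.4% of all genes tested were called lower. Cenpf, which encodes a kinetochore protein (chromosome 1, 189640614 to 189688086), was 7.39, 9.03, 9.75 and 8.09 CPM in young libraries. It was 3.56, 4.66 and 2.17 CPM in aged replicates 1, 3 and 4, and 3.88 CPM in aged replicate 2. Every aged library was below every young one. Cenpf fell by 1.29 on the log2 scale (SE 0.24, adjusted p 0.00025), and by 1.25 over 16 libraries.

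Ube2c, the ubiquitin-conjugating enzyme of the anaphase-promoting complex (chromosome 2, 164769929 to 164772902), was 1.23, 2.37, 2.27 and 1.33 CPM in young libraries, from 11 to 21 counts. It was 0.59, 0.61 and 0.87 CPM in aged replicates 1, 3 and 4, from 5 or 6 counts, and 1.06 CPM in replicate 2. The groups did not overlap, with a log2 fold change of -1.38 (SE 0.45, adjusted p 0.016) and -1.19 over 16 libraries. The call was lost when young replicate 2 or 3 or aged replicate 1 or 3 was left out, with adjusted p from 0.044 to 0.059, all with p above 0.01.

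Mki67 (chromosome 7, 135689788 to 135716379) was 1.12, 2.03, 1.81 and 0.36 CPM in young libraries, 10, 18, 16 and 3 counts. Aged replicates 1, 3 and 4 had 0.12, 0.25 and 0.72 CPM, 1, 2 and 5 counts, and aged replicate 2 had 0.94 CPM, 8 counts. The groups overlapped through young replicate 4. The log2 fold change of -1.91 had a standard error of 0.66 and an adjusted p of 0.022, and over 16 libraries it was -1.39 with an adjusted p of 0.069. The call was lost in 10 of the 14 fits that left out 1 library, where the adjusted p ranged up to 0.10, which makes it the least stable call of this comparison.

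The other 9 mitosis genes tested did not pass. Top2a was 2.17 to 2.69 CPM in young libraries and 1.54, 2.33 and 1.73 CPM in aged replicates 1, 3 and 4, with a log2 fold change of -0.38 (adjusted p 0.27). Cenpe, a kinetochore motor, had a log2 fold change of -0.95 (adjusted p 0.056), and Birc5 (survivin), of the chromosomal passenger complex, -0.71 (adjusted p 0.11). Ccna2, Cdk1, Ccnb2, Aurka, Aurkb and Foxm1 had log2 fold changes between -0.41 and 0.34. The 15 mitosis genes together summed to 38.5 to 45.9 CPM in young libraries and 21.7 to 31.4 CPM in the 4 aged ones, from 150 to 405 counts a library. Plk1, a mitotic kinase with too few counts for the test, had 8, 9, 7 and 10 counts in young libraries and 2, 0 and 4 in aged replicates 1, 3 and 4, with 5 in replicate 2. Ccnb1 had 3 to 6 counts in young and 1 to 7 in aged libraries, and Bub1 had 0 to 7 and 0 to 6.

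Of the 5 genes tested among the Cdk inhibitors and p53, none was called higher with age and 2 were called lower. Over all genes tested 15.1% were called higher and 11.4% lower, and a group of 5 is too small to set against these shares. Cdkn1c, the gene of p57 (chromosome 7, 143458339 to 143461050), was 97.4, 88.7, 95.3 and 84.8 CPM in young libraries and 57.6, 48.4 and 45.5 CPM in aged replicates 1, 3 and 4. Aged replicate 2 had 82.7 CPM, just under the lowest young library. It fell by 0.86 on the log2 scale (SE 0.15, adjusted p 0.00015), and by 0.64 over 16 libraries (adjusted p 0.011), still called.

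Cdkn1a was 81.2, 79.1, 81.9 and 77.2 CPM in young libraries and 56.7, 61.4 and 52.0 CPM in aged replicates 1, 3 and 4. These groups did not overlap, with a log2 fold change of -0.49 (SE 0.13, adjusted p 0.0035), under the minimum fold. In aged replicate 2 it was 108 CPM, above every other library of the study, and over 16 libraries the adjusted p was 0.46. Cdkn1b (p27) overlapped between the groups, at 21.7, 21.5, 20.1 and 15.9 CPM in young libraries and 20.7, 21.7 and 18.2 CPM in aged ones, with 32.7 CPM in aged replicate 2. Its log2 fold change was 0.03, with a 95% interval from -0.33 to 0.38. Cdkn2c (p18) had a log2 fold change of -0.22 (adjusted p 0.22), and of 0.04 over 16 libraries.

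Cdkn2a had 1, 0, 1 and 1 counts in young libraries and 5, 2 and 0 in aged replicates 1, 3 and 4, with 3 in replicate 2. The groups overlapped, and a difference was not detectable at this depth. Trp53 (chromosome 11, 69580359 to 69591873) was 53.3, 47.2, 47.7 and 54.1 CPM in young libraries and 30.2, 33.9 and 30.8 CPM in aged replicates 1, 3 and 4. Aged replicate 2, at 43.5 CPM, was also below every young library. Trp53 fell by 0.68 on the log2 scale (SE 0.10, adjusted p 3.64e-05). Over 16 libraries the change was -0.55 with an adjusted p of 0.0039, under the minimum fold.

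Several cell type markers differed between the age groups as well. Over the 14 libraries, the 11 astrocyte markers summed to 17329 to 20427 CPM in young and 10539.5 to 11666 CPM in aged libraries, with 4 of 11 called lower and 1 higher. The 9 microglial markers summed to 1531 to 1873 and 1036 to 1156 CPM (3 of 9 lower, none higher), and the 7 endothelial markers to 522 to 577 and 345 to 420.1 CPM (3 of 7 lower, none higher). The 8 oligodendrocyte markers summed to 10143 to 12349 and 5306 to 7452 CPM (2 of 8 lower, 1 higher), and the 10 mural and fibroblast markers to 4909 to 5920 and 4175 to 4890 CPM (1 of 10 in each direction). None of these 5 sums overlapped between the age groups. The sums of the 7 markers of oligodendrocyte precursors overlapped, at 193 to 256 and 233 to 236 CPM, with 1 called in each direction. So did those of 7 retina and pigment cell markers, at 822 to 4315 and 997 to 2727 CPM, with none called. No marker of these lists was at 0 in any library. The part of these markers and of Lars2 in the lower members was not tested. The library names carry a code, which was 3 for all young and most aged libraries and 4 for aged replicate 4. Among the libraries of code 3, 4 young and 2 aged, 7 of the 8 members were called again, with Cdk6 at 0.87, Ccnd1 at -1.14 and Cenpf at -1.06 log2. The exception was Ube2c, at -1.55, with a p of 0.011 and an adjusted p of 0.028. With each library's trend with gene length removed, Ube2c (adjusted p 0.073) and Trp53 (-0.50, under the minimum fold) were not called, and Cenpe (-1.31, adjusted p 0.011) was. In that fit Cdk4, Rb1 and Pcna had log2 fold changes of 0.0064 (adjusted p 0.95), 0.17 (0.15) and -0.15 (0.25), while Ccnd2 was at -1.02.

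Other genes of the same pathways were counted from lists of genes known for each role, and their counts are to be read against the 15.1% of all genes called higher and 11.4% called lower. The median log2 fold changes were 0.11 for the G1 and E2F, -0.24 for the replication, -0.32 for the mitosis and 0.29 for the p53 list, against 0.02 over all genes tested. Among 21 other G1 and E2F genes tested, 4 were called higher and none lower, led by Rbl1 (p107), a relative of Rb1, at 1.10 log2 (adjusted p 3.35e-05), Lin52 at 0.79 (1.12e-05), a subunit of the MuvB core, and Skp2 at 0.96 (0.0058), which targets p27 for degradation. Among 41 other replication genes none was called higher and 6 lower, including Rfc1 of the clamp loader at -1.33 (adjusted p 2.75e-06) and Rpa2 of the single-strand binding complex at -0.89 (1.43e-05). Among 34 other mitosis genes 2 were called higher and 6 lower. Those with the smallest p were Cdc25b, the phosphatase that activates Cdk1, at 1.21 (adjusted p 1.64e-07), and the condensin subunits Smc4 at -0.98 (2.56e-05) and Smc2 at -1.04 (8.36e-05).

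Of the 3 other Cdk inhibitors, Cdkn2b (p15) fell from 40.8 ± 4.26 to 17.8 ± 3.12 CPM, a log2 fold change of -1.20 (adjusted p 2.82e-06). Cdkn2d (p19Ink4d) was called lower at -0.59 (adjusted p 6.27e-05) over 14 libraries, but aged replicate 2 held 70.6 CPM against a young mean of 49.6, and over 16 libraries the adjusted p was 0.42. Among 20 targets and regulators of p53, 6 were called higher and 1 lower. They include Ei24, at 0.93 (adjusted p 5.94e-08), Trp53inp1, which encodes a p53-induced nuclear protein, at 1.00 (1.49e-05), and Zmat3, a p53 target, at 0.99 (6.59e-05). Mdm2, the ubiquitin ligase of p53, and its relative Mdm4 were also higher, at 0.63 and 1.19. None of the 9 genes of exit from the cycle was called over 14 libraries. With all 16 libraries the counts higher and lower were 3 and 0 for G1 and E2F, 0 and 4 for replication, 2 and 4 for mitosis, 0 and 1 for the inhibitors, 5 and 1 for p53, and 1 and 0 for exit from the cycle, where the gene called was Foxo3. In that fit 1624 of all 14417 genes tested were called higher and 1212 lower.

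Microbead libraries were compared with saline libraries to show the response to raised pressure 4 weeks after injection. None of the 37 members was called by edgeR in either direction, where 9.39% of all genes tested were called higher and 3.06% lower. DESeq2 also called none, and 10 of the 37 members had an unadjusted p under 0.05 in edgeR, as did 6286 of all 14541 genes tested. The groups did not overlap for 4 members higher and 5 lower, where 19.8% and 17.7% of all genes did so. The median log2 fold change of the members was -0.19, against -0.01 over all genes. With all 16 libraries no member was called either, where the share of all genes called was 0%, and 2 members had an unadjusted p under 0.05.

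Ccnd1 was 305, 385 and 357 CPM in saline replicates 1 to 3 and 213, 251, 308 and 270.1 CPM in microbead replicates 1 to 4, with 237 CPM in saline replicate 4. Microbead replicate 3 lay above saline replicate 1, so the groups overlapped, and the log2 fold change was -0.42 with a 95% interval from -0.91 to 0.06 (adjusted p 0.17). Among the libraries of code 4 alone, 3 saline and 2 microbead, Ccnd1 was the 1 member called, at -0.59 (adjusted p 0.031). Ccnd2 was 1258, 1064 and 1116 CPM in saline and 935, 865, 941 and 922 CPM in microbead libraries, a difference of -0.32 (adjusted p 0.0045) that did not reach the minimum fold. Saline replicate 4, at 841 CPM, was below every microbead library, and over 16 libraries the adjusted p of Ccnd2 was 0.32.

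Cdk6 was 6.00, 2.91 and 3.67 CPM in saline replicates 1 to 3 and 3.41, 4.02, 3.53 and 3.60 CPM in microbead libraries, so the microbead values fell within the saline range. The log2 fold change was -0.19 with an interval from -0.67 to 0.29. Cdk4 at -0.28 (adjusted p 0.0062), Rb1 at 0.39 (0.0066) and Ccne2, cyclin E2, at 0.48 (0.022) passed both p thresholds without the minimum fold. Over 16 libraries their adjusted p were 0.32, 0.31 and 0.30. In saline replicate 4 Rb1 was 47.4 CPM and Ccne2 10.4 CPM, against microbead ranges of 42.0 to 47.1 and 8.71 to 11.2 CPM. Ccnd3, Ccne1, Cdk2 and E2f1 had log2 fold changes of -0.01, -0.52, -0.03 and 0.47 and did not pass.

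Pcna showed the smallest p of the members in this comparison. It was 23.6, 21.2 and 19.8 CPM in saline replicates 1 to 3 and 15.4, 14.8, 14.8 and 14.96 CPM in microbead libraries. The groups did not overlap, and the log2 fold change was -0.52 (SE 0.11, adjusted p 0.0017), under the minimum fold. Saline replicate 4 had 13.0 CPM, below every microbead library, and over 16 libraries the adjusted p was 0.26. The other 9 replication genes had log2 fold changes between -0.34 (Rrm2) and 0.24 (Mcm2).

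The mitosis genes were low in both injected groups, and their sum was 38.7 to 48.4 CPM in saline and 32.8 to 41.2 CPM in microbead libraries. Mki67 was 1.33, 0.50 and 0.38 CPM in saline replicates 1 to 3, 10, 5 and 3 counts, and 0.92, 0.95, 0.81 and 1.23 CPM in microbead libraries, 7, 9, 8 and 13 counts. The saline range enclosed the microbead range. The log2 fold change was 0.44 with a 95% interval from -0.79 to 1.66, so changes within that interval were not excluded at this depth.

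Top2a was 2.53, 1.91 and 2.03 CPM in saline replicates 1 to 3 and 2.76, 2.01, 2.42 and 2.27 CPM in microbead libraries, with a log2 fold change of 0.13 and an interval from -0.43 to 0.69. Foxm1, the transcription factor of mitotic genes, was 0.40, 1.41 and 1.01 CPM in saline replicates 1 to 3, 3, 14 and 8 counts, with 0.47 CPM in replicate 4. In microbead libraries it was 1.84, 2.64, 1.61 and 2.75 CPM, 14, 25, 16 and 29 counts. Every microbead library was above every saline library, but the log2 fold change of 1.19 (SE 0.48, p 0.023) had an adjusted p of 0.062, and 0.21 over 16 libraries. Aurka and Cenpe had log2 fold changes of -0.99 and -0.91 with adjusted p of 0.061 and 0.064. The other 7 mitosis genes tested lay between -0.85 (Aurkb, an Aurora kinase) and 0.30 (Ccnb2, cyclin B2), Cenpf at -0.23 and Ube2c at -0.65, with adjusted p of at least 0.20.

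**Figure D3:**
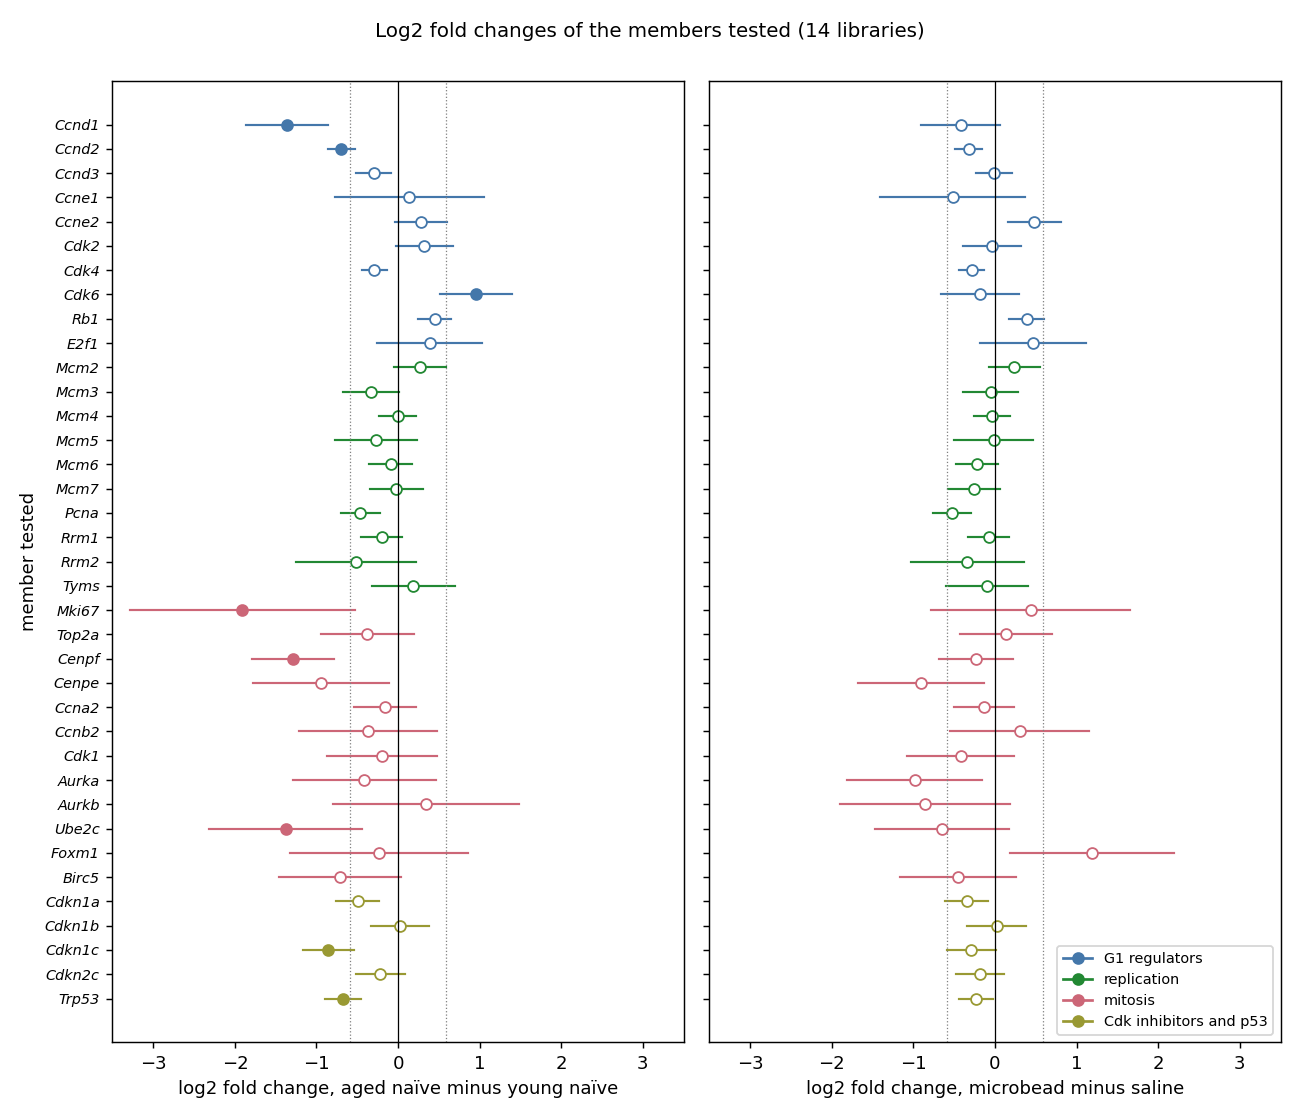
Log2 fold change and 95% interval of the 37 members tested, aged minus young naïve on the left and microbead minus saline on the right, grouped by role. Filled points passed all thresholds and dotted lines mark 1.5-fold. There are 8 filled points on the left and none on the right, and the widest intervals belong to mitosis genes such as Mki67, from -3.29 to -0.53 with age.

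Among the inhibitors, Cdkn1a was 60.0, 59.3 and 68.7 CPM in saline replicates 1 to 3 and 50.1, 63.9, 40.0 and 43.5 CPM in microbead libraries. Microbead replicate 2 lay within the saline range. Cdkn1a differed by -0.34 on the log2 scale (adjusted p 0.042), under the minimum fold, and over 16 libraries the adjusted p was 0.30. Cdkn1b was 21.5, 14.7 and 14.8 CPM in saline and 22.7, 15.6, 15.01 and 15.7 CPM in microbead libraries, with a log2 fold change of 0.02 and an interval from -0.34 to 0.38. Cdkn1c was 97.4 to 106 CPM in saline and 75.9, 71.6 and 69.4 CPM in microbead replicates 2 to 4, but 116 CPM in microbead replicate 1, and its log2 fold change was -0.29 (adjusted p 0.13).

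Trp53 was 44.7, 43.8 and 52.7 CPM in saline replicates 1 to 3 and 37.7, 37.3, 40.7 and 43.8 CPM in microbead libraries. Microbead replicate 4 lay just above saline replicate 2, and the log2 fold change was -0.24 (adjusted p 0.078). Cdkn2a had 1, 0 and 1 counts in saline replicates 1 to 3, 0 in replicate 4, and 4, 2, 1 and 1 in microbead libraries. Cdkn2c had a log2 fold change of -0.18 (adjusted p 0.33). The absence of calls changed with some choices: 1 member was called without aged replicate 3 or saline replicate 1 (Aurka) and without saline replicate 2 (Ccne2). With the trend with gene length removed there were 3, Ccnd2 (-0.65, adjusted p 8.86e-06), Cenpf (-0.66, 0.040) and Cenpe (-1.29, 0.018), all lower in microbead libraries. In that fit Cdk4 (-0.017, adjusted p 0.89), Rb1 (0.12, 0.44), Ccne2 (0.40, 0.081) and Pcna (-0.24, 0.12) no longer passed the adjusted p threshold.

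**Figure D4:**
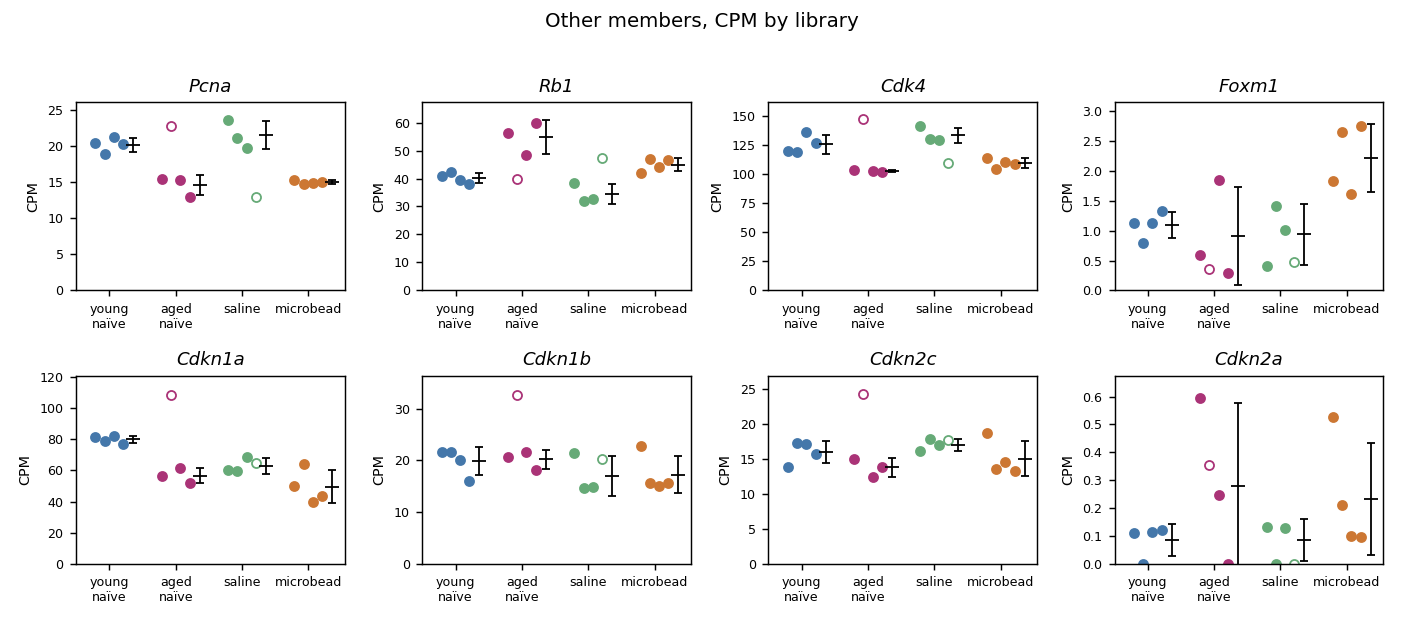
CPM by library of 8 further members, with open points for the libraries left out of the tests and bars for the mean ± SD of the others, each panel on its own linear axis from 0. For Pcna the open saline point (13.0 CPM) lies with the microbead points and the open aged point (22.7 CPM) with the young ones, and the Foxm1 microbead points lie at 1.61 to 2.75 CPM, above all saline points.

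In the injected groups the summed astrocyte markers lay at 19880.2 to 20263 CPM for the 3 saline libraries tested and at 17089.5 to 22651 CPM for the microbead libraries, which overlapped, with 1 of 11 markers called lower. For microglia the sum was 1561 to 1989 and 1290.0 to 1483 CPM, with 2 of 9 called lower. The 8 oligodendrocyte markers summed to 6240 to 14540 and 6853 to 11753 CPM (1 called higher). The 7 retina and pigment cell markers summed to 1317 to 6306 and 572 to 1448 CPM (1 called lower). Both sums overlapped, as did those of endothelial, mural and fibroblast, and oligodendrocyte precursor markers. The part of these markers in the members' values was not tested.

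Of the other pathway genes, 3 of 21 G1 and E2F genes were called higher and 1 lower with microbeads, where 9.39% and 3.06% of all genes were called. Lin37 of the MuvB core fell by 0.63 on the log2 scale (adjusted p 0.0016), and Fbxw7, the ubiquitin ligase subunit that targets cyclin E, and Rbl1 rose by 0.67 (0.0061) and 0.63 (0.0077). Gmnn (geminin), which restrains replication licensing, was the 1 of 41 replication genes called, at -0.65 (adjusted p 0.025), and Pttg1 (securin) the 1 of 34 mitosis genes, at -0.60 (0.00018). Zmat3 and Trp53inp1 were the 2 of 20 p53 genes called, higher at 0.89 (0.00065) and 0.65 (0.0025). Of the 9 genes of exit from the cycle, Dyrk1a, a kinase that assembles the DREAM complex, was called higher at 0.59 (0.0019). None of the 9 genes called in these lists was called over 16 libraries, where 0 of all 14417 genes tested were called.

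Saline libraries were compared with young naïve libraries for the effect of injection itself. All young libraries had code 3 and all saline libraries code 4, so injection and code cannot be told apart here. No member was called by edgeR, and over all genes the share called was 0.00688%, which is 1 gene. DESeq2 called no member either, and 3 of the 37 members had an unadjusted p under 0.05, as did 1744 of all genes tested. They are Rb1, at -0.22, Mcm6, at 0.40, and Cdkn1a, at -0.35 log2, all with adjusted p of at least 0.22.

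Microbead libraries, at 13 weeks, were also compared with aged naïve libraries, at 40 weeks. Injection and library code differed along with age, the code being 4 or 5 for microbead and 3 or 4 for aged libraries. Of the 37 members 3 were called, where 10.9% of all genes were called in either direction. Cdk6 was lower in microbead libraries by 1.48 on the log2 scale (95% interval -1.93 to -1.03, adjusted p 0.00013), Cenpf higher by 1.26 (0.76 to 1.76, adjusted p 0.0012) and Cdkn1c higher by 0.72 (0.40 to 1.03, adjusted p 0.0023). Cdk6 lay at 3.41 to 4.02 CPM in microbead and 9.03 to 11.4 CPM in all 4 aged libraries, and Cenpf at 6.13 to 9.47 and 2.17 to 4.66 CPM, so neither gene overlapped. Without microbead replicate 1 Cdkn1c was at 0.52, under the minimum fold. Over 16 libraries it had an adjusted p of 0.063 and was not called, while Foxm1 was called higher (adjusted p 0.041).

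The difference of the responses was tested directly, as the microbead minus saline change less the aged minus young change. It was called for 2 of 37 members, where 7.6% of all genes were called. For Cdk6 it was -1.15 (SE 0.31, adjusted p 0.025), from a change of -0.19 with microbeads against 0.96 with age. For Cenpf it was 1.06 (SE 0.32, adjusted p 0.042), from -0.23 against -1.29. For Ccnd1 it was 0.94 (adjusted p 0.084) and for Mki67 2.35 (adjusted p 0.098), neither of which passed. The Cdk6 call was kept over 16 libraries (adjusted p 0.027) and that of Cenpf was not (adjusted p 0.051). Leaving out 1 library at a time, the Cdk6 call was lost without young replicate 4, aged replicate 4 or saline replicate 1, with adjusted p of 0.054, 0.070 and 0.075, and that of Cenpf in 10 of 14 fits.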

How the data were processed

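RNA of 16 libraries was analysed, each a pool of 4 optic nerve heads, made with an unstranded SMARTer kit. The authors deposited raw counts per gene with summed exon lengths, counted by featureCounts after alignment to mm10 with STAR 2.3.0. For featureCounts, version and annotation are named in no source used here. Tables of the authors' own comparisons, with averages, ratios and p-values, were not used, except that their column names showed which 14 libraries the authors kept.

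Members were matched by symbol. Members and gene lists were chosen with earlier results of these data known. Genes were filtered with filterByExpr, scaled by TMM and fitted in 1 robust quasi-likelihood model of 4 groups over 14 libraries with edgeR 4.0.16 in R 4.3.3, p-values being adjusted by Benjamini-Hochberg over all genes tested. CPM were scaled over all 16 libraries. Every member is accounted for. Called members and Mki67, Top2a, Ccnd1, Pcna, Cdkn1a, Cdkn1b, Cdkn2a and Trp53 are given by library, and of other pathway lists up to 3 called genes with the smallest p (1 such gene is not reported here); Mdm2, Mdm4 and Cdk6, Cdk4, Rb1, Foxm1 and Ccnd2 in further comparisons were added after values were seen. The fit was tested on simulated data.

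Alternatives were all 16 libraries, RLE size factors, no filter and a stricter filter (CPM of at least 1 in 3 libraries), DESeq2 1.42.0, only the groups compared, no minimum fold, a replicate block, libraries of the same code, a removed trend with gene length (loess, span 0.5) and each library left out.  The labels name no pairs of libraries, so p-values measure the spread between pools of separate mice. The library code was not in the model. It was 3 for all young, 3 or 4 for aged, 4 for all saline and 4 or 5 for microbead libraries. Any effect of the code is part of the differences between groups and was not tested apart from the fits within a code. Intervals are 95% intervals of the fitted log2 fold change, with the standard error taken from the test statistic, and the limit given for a count of 0 covers counting error only.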

Additional observations from a re-analysis of the deposited data

Results flagged for a closer look

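In groups of 4 libraries, all 16 included, 7 of 148 combinations of a tested member and a group held a library whose distance from its nearest neighbour exceeded Dixon's 95% critical value as a share of the range of the group. Chance gives about 1 in 20 such groups. In aged replicate 2, Cdk4 was 148 CPM against 102 to 103.9 CPM in the other aged libraries and Cdkn1a was 108 CPM against 52.0 to 61.4 CPM, and this library was left out of the tests. In aged replicate 3, Aurka was 2.45 CPM against at most 0.87 CPM. In microbead replicate 2, Cenpf was 6.13 CPM against at least 8.93 CPM and Cdk1 was 3.59 CPM against at most 2.49 CPM. In microbead replicate 1, Cdkn1b was 22.7 CPM against at most 15.7 CPM and Cdkn1c was 116 CPM against at most 75.9 CPM.

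The change with microbeads differed from the change with age in Cdk6, by -1.15 on the log2 scale, and in Cenpf, by 1.06, in the test of the difference itself by edgeR.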

How the results depend on the processing

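The count of members called with age, 8 over 14 libraries, was 5 with all 16 (4 lower in place of 7), where 19.7% of all genes were called. With no minimum fold change it was 13 (2 higher and 11 lower). Leaving out 1 library gave 6 to 9, of them 5 to 8 lower and 1 higher, with Cenpe added without aged replicate 3 and Plk1 without aged replicate 4. With microbeads the count of 0 became 5 with no minimum fold, 1 among libraries of the same code, 3 with the trend with gene length removed, and 0 to 1 without 1 library. Without a minimum fold more of all genes pass too. Of all 14541 genes tested, 8034 with age and 6286 with microbeads had an unadjusted p under 0.05 in edgeR. Elsewhere in this paragraph the share of all genes called is not given, so these counts are not results about the members. The count in microbead against aged libraries, 3, became 5 with no minimum fold and 2 to 5 without 1 library. The difference of the responses, 2 members, became 1 with all 16 libraries and 0 to 4 without 1 library; without aged replicate 3 Foxm1 and Ccnd1 were added. In the saline against young comparison the count stayed at 0 in every alternative run. Directions were followed in every alternative only for called members and for Mki67, Top2a, Ccnd1, Pcna, Cdkn1a, Cdkn1b and Trp53. Those of called members did not reverse. Reversals among members not followed include Cdk4 with age, from -0.29 to 0.0064 without the length trend. With all 16 libraries Cdkn2c with age went from -0.22 to 0.04 and Ccnb2 with microbeads from 0.30 to -0.055. Of the uncalled members followed, Top2a and Cdkn1b reversed. With microbeads, Top2a (0.13) became -0.049 with all 16 libraries and -0.17 without the length trend. Cdkn1b (0.02) became -0.045 with all 16 libraries and ranged from -0.13 to 0.22 without 1 library. With age, Cdkn1b (0.03) ranged from -0.063 to 0.095 without 1 library. The cause of these changes was not tested. Other size factors or filters moved no count by over 1.5 times.

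Replicate numbers are shared between groups, but same-numbered libraries did not deviate together in every pair (r of 0.14, -0.003 and 0.33 for aged and young, and 0.10, -0.19 and 0.21 for microbead and saline), so the numbers were not taken as pairs. With the replicate block 6 members were called with age, Ube2c (adjusted p 0.034) and Mki67 (0.052) being lost, none with microbeads and 3 in microbead against aged libraries. In the difference of the responses Cdk6 (-1.11, adjusted p 0.057) was lost and Cdkn1c called. Depth limits the mitosis genes, with Mki67 at 1 to 18 counts a library.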
